A study of Mus musculus with 9 samples.

Results

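The 10 genes described here, Bin1, Picalm, Cd2ap, Sorl1, Abca7, Ptk2b, Fermt2, Mapt, Inpp5d and Plcg2, are mouse orthologs of human genes at Alzheimer's disease risk loci. They were selected by name from the 48709 genes that the count files list, and all 10 passed the filter on low counts that left 17361 genes for testing. Their RNA was measured in nuclei of the hippocampus that were sorted after staining for NeuN, an antigen of neuronal nuclei, and not in whole tissue. The WT group held 3 libraries from C57BL/6J mice given tap water. The Tg4-42 vehicle group held 3 libraries from homozygous transgenic mice on the C57BL/6J background, also given tap water. The genotype label of these libraries reads APP Transgenic, and the line, its homozygosity and its background were taken from the study's text. The Tg4-42 caffeine group held 3 libraries from homozygous transgenic mice that drank caffeine at 300 mg/l from 2 months of age for 4 months. All mice were 6 months old when tissue was taken. In Tg4-42 mice the neuronal murine Thy1 promoter drives human Aβ4-42 fused to the signal peptide of murine thyrotropin-releasing hormone, without mutated human APP. No library of caffeine-treated WT mice was used here, so caffeine was compared with vehicle within Tg4-42 mice only. The labels do not give the sex of the animals behind each library. In the study's methods, hippocampi were dissected and frozen from male Tg4-42 mice, whereas the hemispheres of female Tg4-42 mice were fixed. The sex of the mice used for sequencing is not stated there.

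Most of these genes act where membranes, lipids and the cytoskeleton meet. Bin1, Picalm and Cd2ap serve endocytosis, Sorl1 sorts the amyloid precursor protein between endosomes and the Golgi apparatus, and Abca7 moves lipids across membranes. Ptk2b and Fermt2 carry signals from calcium and from integrins, and Mapt encodes the microtubule-associated protein tau. Inpp5d and Plcg2 encode enzymes of phosphoinositide signalling that in the brain are best known from microglia.

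The libraries held 9342945 to 16376922 reads counted on exons, and 3 counts in a library corresponded to 0.189 to 0.324 CPM (counts scaled to the library total), a floor that covers counting error only. The 16 neuron markers summed to between 9253 and 12263 CPM per library, against 71.2 to 127 CPM for 20 microglia markers, and the gene of the sorting antigen, Rbfox3, lay between 89.1 and 147 CPM. None of the markers of any cell type was at 0 in every library. Replicates 1 and 2 of each group were sequenced on lane 6 and replicate 3 on lane 7, so replicate 3 and lane 7 cannot be told apart. The titles carry a different number for each library, whether a library holds nuclei of more than 1 mouse is not settled by the labels, the replicate numbers used here follow the order of the records, and p-values measure the spread between these samples. All tests were edgeR quasi-likelihood tests over the 17361 genes with Benjamini-Hochberg adjustment, and a gene was called at an adjusted p under 0.05.

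**Figure D1:**
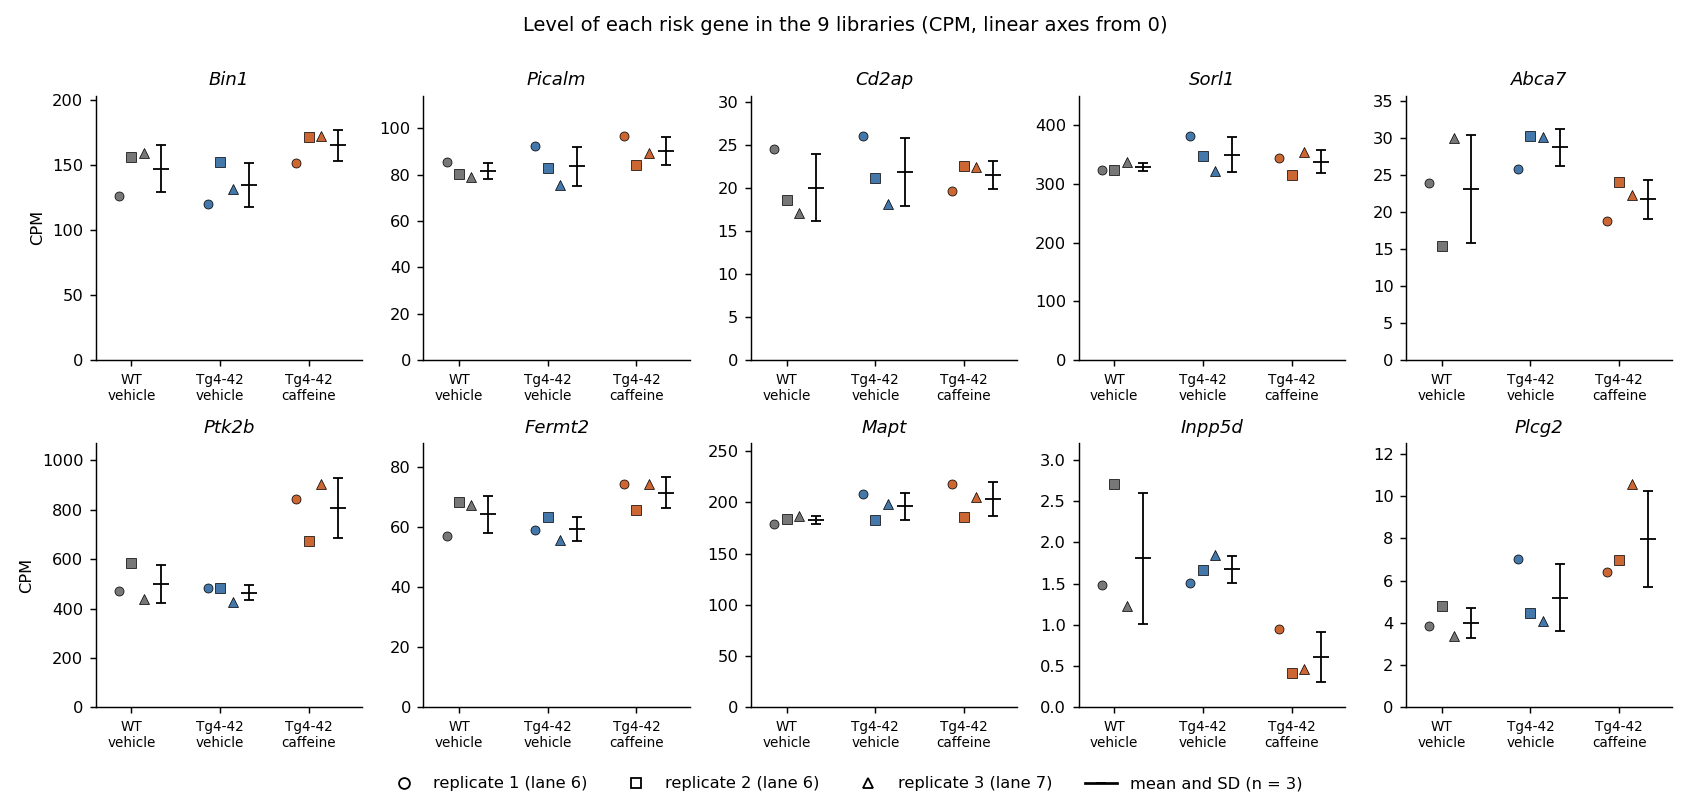
Level of each of the 10 genes in CPM in the 3 WT vehicle, 3 Tg4-42 vehicle and 3 Tg4-42 caffeine libraries, with the mean and SD to the right of the points. The 3 caffeine libraries lie above all 6 others for Ptk2b and below all 6 others for Inpp5d, and the caffeine and vehicle libraries of Tg4-42 mice overlap for Bin1, Picalm, Cd2ap, Sorl1, Mapt and Plcg2.

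Per kilobase of annotated exon, the level of these genes spanned nearly the whole range of the tested genes. Ptk2b was the most abundant with 79.7 ± 24.2 CPM per kb (SD, n = 9 libraries), at percentile 97.7 of all tested genes. It was followed by Bin1 with 36.2 ± 4.64 CPM per kb, Sorl1 with 29.9 ± 1.82, Mapt with 25.8 ± 1.85, Fermt2 with 12.5 ± 1.33, Picalm with 5.41 ± 0.428 and Abca7 with 3.63 ± 0.769 CPM per kb. Cd2ap stood at 1.33 ± 0.191 and Plcg2 at 1.33 ± 0.531 CPM per kb, both at percentile 24.5. Inpp5d was the least abundant with 0.180 ± 0.0940 CPM per kb, at percentile 1.97. The neighbours in this order differed within the same library by more than the spread over the 9 libraries, except for 2 pairs. Bin1 was higher than Sorl1 in 8 of 9 libraries, with a mean log2 difference of level of 0.27 ± 0.23 (SD), and Cd2ap was higher than Plcg2 in 6 of 9 libraries, with 0.08 ± 0.47. The place of a long gene depends on the length used: with the longest annotated transcript in place of all exons, Mapt stood before Sorl1 and Cd2ap before Abca7.

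**Figure D2:**
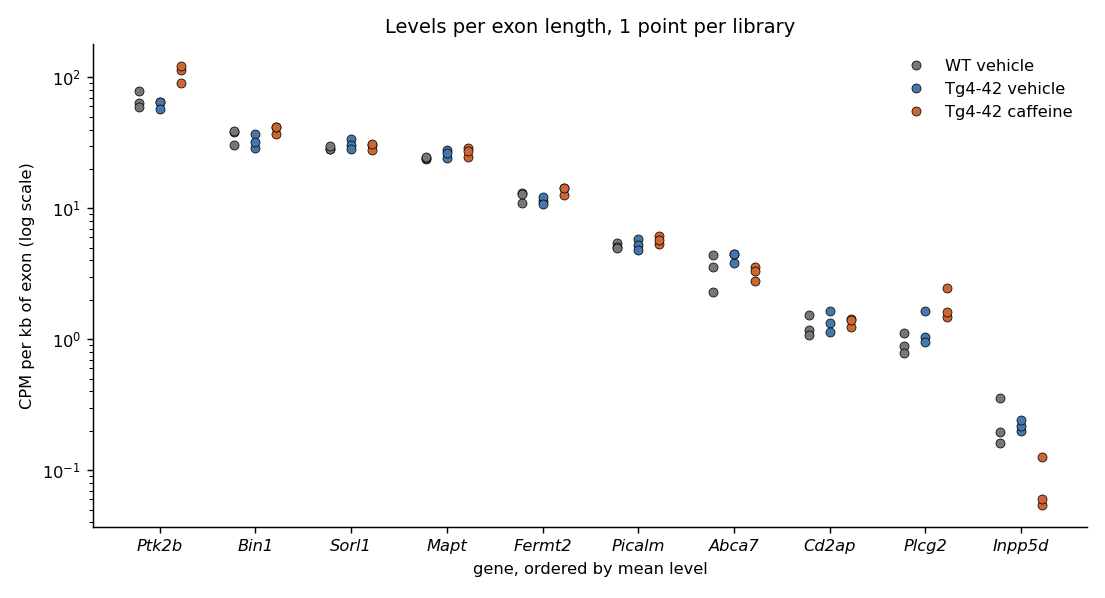
Level per kilobase of exon on a log scale, 1 point per library, genes ordered by their mean over the 9 libraries. The points run from about 0.0545 CPM per kb for Inpp5d to 122 CPM per kb for Ptk2b, and the clouds of Bin1 and Sorl1 and of Cd2ap and Plcg2 overlap.

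The first comparison asked what the transgene does in vehicle-treated mice. None of the 10 genes was called between Tg4-42 vehicle and WT vehicle mice, against 0.0979% of all tested genes, and every adjusted p of the edgeR quasi-likelihood test rounded to 1.0. None had an unadjusted p under 0.05 either, against 2.74% of all genes, and in none did the 3 libraries of one group lie apart from the 3 of the other, against 6.73% of all genes. DESeq2 and limma-voom with sample quality weights also called 0 of the 10. The log2 fold changes lay between -0.13 for Bin1 and 0.36 for Plcg2, and that of Plcg2 was 0.10 without Tg4-42 vehicle replicate 1, that of Abca7, 0.32, was 0.09 without WT vehicle replicate 2 and 0.54 without WT vehicle replicate 3. The 95% intervals of 7 of the 10 genes, from Bin1 (-0.41 to 0.15) to Mapt (-0.14 to 0.34), stayed within 0.50 of 0 on the log2 scale. The other 3 were wider, with Abca7 at -0.11 to 0.74, Plcg2 at -0.24 to 0.96 and Inpp5d at -0.97 to 0.74.

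The second comparison, caffeine against vehicle within Tg4-42 mice, asked whether the treatment altered the expression of these genes. Ptk2b rose 1.74-fold and was the only one of the 10 genes called, in a comparison that called 0.881% of all tested genes, or 153, a count that leaving out 1 library moved to between 0 and 341. At an unadjusted p under 0.05 there were 5 of the 10, Ptk2b, Inpp5d, Plcg2, Bin1 and Fermt2, against 17.0% of all tested genes. The caffeine and vehicle libraries did not overlap for 4 of the 10, Ptk2b, Fermt2, Abca7 and Inpp5d, against 23.0% of all tested genes. The median log2 fold change of the 10 genes was 0.08, beside -0.01 over all tested genes. With 3 libraries against 3, an exact permutation test of any single gene cannot give a p below 0.1.

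**Figure D3:**
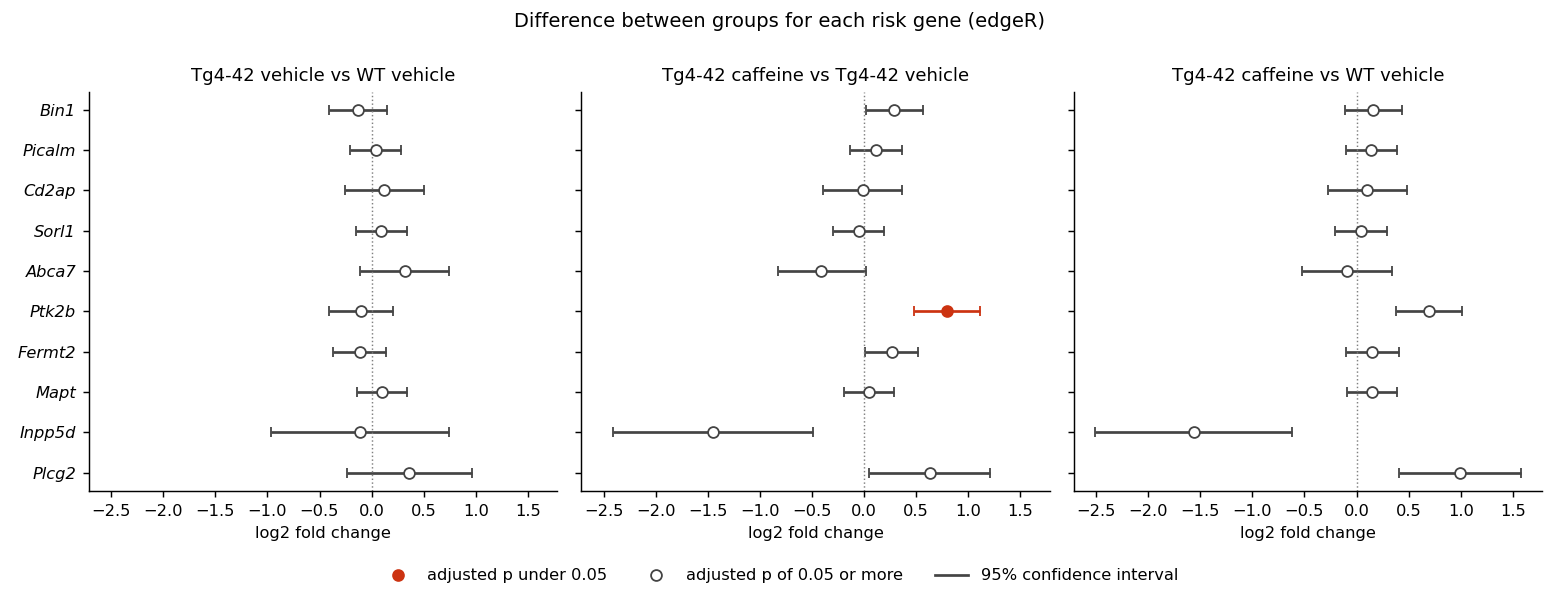
Log2 fold change with its 95% confidence interval for each gene in the 3 comparisons, from the fit to all 9 libraries. Ptk2b with caffeine against vehicle, at 0.80, is the only red point, and the intervals of Inpp5d are the widest in each comparison.

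Among the genes of endocytosis, none was called with caffeine. Bin1 (ENSMUSG00000024381, chromosome 18) encodes amphiphysin 2, a protein that bends membranes. It measured 126, 157 and 159 CPM in WT vehicle, 120, 153 and 131 CPM in Tg4-42 vehicle and 152, 172 and 172 CPM in Tg4-42 caffeine libraries. The highest vehicle library of the transgenic mice lay just above the lowest caffeine library, so the groups overlapped. The log2 fold change with caffeine was 0.29 (95% interval 0.02 to 0.57, edgeR adjusted p = 0.269), and the difference of mean log2 CPM was 0.25 within lane 6 and 0.39 within lane 7. Of the exon bases of Bin1, 6.22% also belong to the opposite-strand A830052D11Rik, and without a stated strand setting the reads of both cannot be told apart there.

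Picalm (ENSMUSG00000039361, mm10 chr7:90130213-90213465, plus strand), the clathrin assembly adaptor, measured 85.5, 80.5 and 78.8 CPM in WT vehicle, 92.5, 82.7 and 75.8 in Tg4-42 vehicle and 96.7, 84.4 and 89.5 in Tg4-42 caffeine libraries. Cd2ap (ENSMUSG00000061665, chr17:42792951-42876665, minus strand), a scaffold between endocytic membranes and actin, measured 24.5, 18.6 and 17.0 CPM in WT vehicle, 26.0, 21.2 and 18.2 in Tg4-42 vehicle and 19.6, 22.6 and 22.4 in Tg4-42 caffeine libraries. In both genes the groups overlapped in all 3 comparisons. The log2 fold change with caffeine was 0.11 for Picalm (-0.14 to 0.36) and -0.01 for Cd2ap (-0.39 to 0.36).

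Sorl1 (ENSMUSG00000049313, chr9:41964720-42124297, minus strand) encodes the sorting receptor SORLA. Its level was the steadiest of the 10, with 324, 324 and 337 CPM in WT vehicle, 381, 347 and 322 in Tg4-42 vehicle and 343, 315 and 354 CPM in Tg4-42 caffeine libraries. The coefficient of variation over the 9 libraries was 6.09%, and the 95% interval of the log2 fold change with caffeine reached from -0.30 to 0.19. An antisense gene, Gm16214, shares 1.63% of the exon bases of Sorl1. Mapt (ENSMUSG00000018411, chr11:104231390-104332090, plus strand) had the next lowest coefficient of variation, 7.16%. It measured 178, 184 and 186 CPM in WT vehicle, 208, 182 and 198 in Tg4-42 vehicle and 218, 186 and 206 CPM in Tg4-42 caffeine libraries. Its log2 fold change with caffeine was 0.05 (-0.19 to 0.29).

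Abca7 (ENSMUSG00000035722, chr10:79996494-80015572, plus strand), a transporter that exports lipids, was one of the 4 genes whose caffeine and vehicle libraries lay apart. It measured 25.8, 30.2 and 30.1 CPM in Tg4-42 vehicle and 18.8, 24.0 and 22.3 CPM in Tg4-42 caffeine libraries. The WT libraries, at 24.0, 15.5 and 30.0 CPM, overlapped with both groups. The log2 fold change with caffeine was -0.41 (-0.83 to 0.02, edgeR adjusted p = 0.322), with -0.39 within lane 6 and -0.43 within lane 7. Fermt2 (ENSMUSG00000037712, chr14:45458795-45530118, minus strand) encodes kindlin-2, an activator of integrins. It measured 57.2, 68.3 and 67.3 CPM in WT vehicle, 59.1, 63.5 and 55.6 in Tg4-42 vehicle and 74.4, 65.5 and 74.4 CPM in Tg4-42 caffeine libraries. Its caffeine libraries lay above those of the transgenic vehicle mice but not above all WT libraries. The log2 fold change with caffeine was 0.27 (0.01 to 0.52, edgeR adjusted p = 0.28), with 0.19 within lane 6 and 0.42 within lane 7.

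Ptk2b (ENSMUSG00000059456, chr14:66153257-66281052, minus strand) encodes Pyk2, a tyrosine kinase of the focal adhesion kinase family that calcium activates and that is abundant in forebrain neurons. It measured 471, 585 and 437 CPM in WT vehicle, 484, 482 and 428 CPM in Tg4-42 vehicle and 842, 672 and 906 CPM in Tg4-42 caffeine libraries. The 3 caffeine libraries were the highest of the 9, and both vehicle groups lay in the same range. With caffeine against vehicle the log2 fold change was 0.80 (SE 0.15, 95% interval 0.48 to 1.11, edgeR adjusted p = 0.0385). Ptk2b stood at place 27 by p among all tested genes and had the highest mean CPM of the 37 genes called higher with caffeine. It was also higher in the caffeine libraries than in WT vehicle libraries, with a log2 fold change of 0.70 (0.38 to 1.01), although the adjusted p of 0.0519 missed the threshold.

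The size of the Ptk2b difference held under every processing alternative, and its call did not. The log2 fold change stayed between 0.66 and 0.91. The call held with DESeq2 (adjusted p = 5.4e-05) and with limma-voom with sample quality weights (adjusted p = 0.0141). It was lost with the lane as a covariate (adjusted p = 0.0554), without Tg4-42 caffeine replicate 3 (0.278), without Tg4-42 vehicle replicate 1 (0.0732) and without Tg4-42 vehicle replicate 3 (0.222). Restricted to the lane 6 libraries the log2 fold change was 0.66 with an adjusted p of 0.812. In that restricted fit and in 2 of the 3 fits without those replicates, edgeR called 0 genes in all. The difference of mean log2 CPM was 0.64 within lane 6 and 1.08 within lane 7, where each group has 1 library.

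**Figure D4:**
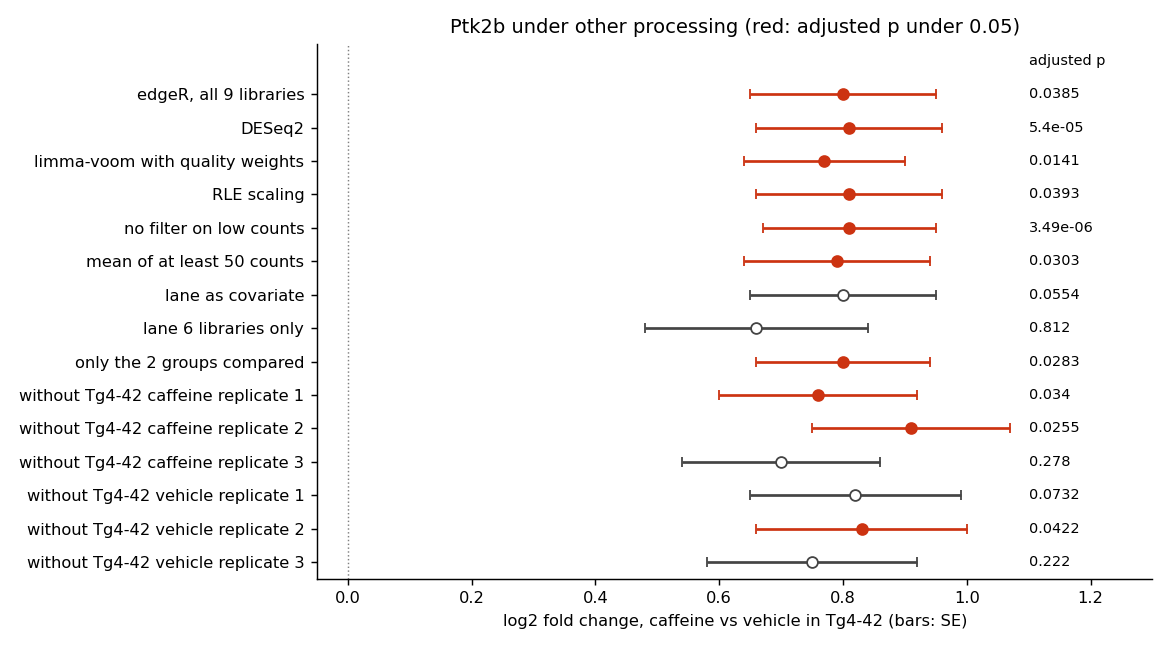
Log2 fold change of Ptk2b between caffeine and vehicle in Tg4-42 mice with its SE under each processing alternative, and the adjusted p at the right. All points lie between 0.66 and 0.91, and 5 of the 14 alternatives end the call.

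Markers of dentate granule cells moved with Ptk2b. Their list was chosen with earlier results of these data known. It holds Dsp and Prox1, which the study had reported as raised by caffeine in these mice. Of 17 such markers 16 were higher with caffeine and 2 were called, in a comparison that called 0.881% of all tested genes. The median log2 fold change of the 17 was 0.58 beside -0.01 over all tested genes. The called markers were Plk5 (1.52, edgeR adjusted p = 0.0385) and Stxbp6 (0.81, edgeR adjusted p = 0.0399). Their summed level was 1782, 1988 and 1579 CPM in WT vehicle, 2136, 2064 and 1363 CPM in Tg4-42 vehicle and 2504, 2224 and 2693 CPM in Tg4-42 caffeine libraries. In lane 6 the ratio of caffeine to vehicle means was 1.13 for the summed markers and 1.57 for Ptk2b, and in lane 7 it was 1.98 and 2.12. Over all libraries the ratio was 1.33 for the markers and 1.74 for Ptk2b. The part of the dentate markers in the Ptk2b result was not tested, and in bulk libraries more nuclei of a type and more RNA per nucleus cannot be told apart. Of the 17 interneuron markers 16 were lower with caffeine (median log2 fold change -0.47), and 2 of these, Slc32a1 (-0.93, edgeR adjusted p = 0.0462) and Nxph1 (-0.91, edgeR adjusted p = 0.0385), were called. Between the vehicle groups 16 of the 17 were higher in Tg4-42 mice (median 0.23), with none called. The interneuron markers summed to 2178, 2162 and 2263 CPM in WT vehicle, 2280, 2141 and 2931 in Tg4-42 vehicle and 1599, 2029 and 1695 in Tg4-42 caffeine libraries. Their ratio of caffeine to vehicle means was 0.821 in lane 6 and 0.578 in lane 7. Of 12 tested genes on the CA1 marker list 8 were lower with caffeine than with vehicle in Tg4-42 mice (median -0.09), with none called in this comparison. Of 14 on the CA3 and CA2 list 6 were lower (median 0.08), also with none called. Whether each listed gene is confined to its region was not tested. Wfs1, a CA1 marker, was called lower in caffeine-treated Tg4-42 than in WT vehicle mice (-0.77, edgeR adjusted p = 0.0408). Cdh24, on the CA3 and CA2 list, was called higher in both Tg4-42 groups than in WT vehicle mice (2.18 with vehicle, edgeR adjusted p = 0.000534). It was the only gene of that list called. Between the vehicle groups 9 of the 14 were higher and 5 lower in Tg4-42 mice, with a median of 0.15.

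The tested genes whose log2 CPM followed Ptk2b most closely over the 9 libraries were Src (Pearson r = 0.981), Ablim3 (0.972), Foxo1 (0.972), Cabp7 (0.965) and Prkce (0.964). These libraries share groups and lanes, so the values are descriptive. Src encodes the kinase that Pyk2 recruits, and Prkce encodes a protein kinase C. Their log2 fold changes with caffeine lay between 0.50 for Ablim3 and 0.80 for Foxo1. Among the dentate markers the closest was Stxbp6 with r = 0.93, at place 37 of all tested genes, followed by Prox1 and Pdzd2 with 0.92. Others followed less closely, down to Calb1 with 0.62, Trpc6 with 0.48 and Il1rap, the most abundant of the 17, with 0.06. Among the other risk genes described here the closest were Fermt2 with r = 0.82 and Plcg2 with 0.81.

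Clu, the risk gene that encodes the chaperone clusterin, lies on the same chromosome, 171710 bases from Ptk2b (chr14:65968483-65981547, plus strand), and moved in the opposite direction. It measured 340, 365 and 427 CPM in WT vehicle, 369, 341 and 439 CPM in Tg4-42 vehicle and 261, 202 and 176 CPM in Tg4-42 caffeine libraries. Every caffeine library lay below every other library. Clu fell by 0.84 on the log2 scale against vehicle (SE 0.16, edgeR adjusted p = 0.0385) and by 0.82 against WT vehicle (edgeR adjusted p = 0.0297). The ratio of caffeine to vehicle means was 0.653 in lane 6 and 0.402 in lane 7. The call of Clu against vehicle was lost in the lane 6 libraries alone, without Tg4-42 caffeine replicate 3 and without Tg4-42 vehicle replicate 3, where edgeR called 0 genes in all. The call of Clu under the other alternatives is not reported here. Clu is also abundant in astrocytes, whose 15 markers were lower with caffeine in 12 cases (median log2 fold change -0.62) with 1, Acsbg1, called (-0.95, edgeR adjusted p = 0.0469). Their summed level was 487 to 617 CPM in caffeine, 569 to 689 CPM in Tg4-42 vehicle and 543 to 698 CPM in WT vehicle libraries. Its part in the Clu result was not tested. The genes nearer to Ptk2b were not called: Chrna2, at 309 bases, had a log2 fold change of -0.25, Trim35 0.29, Ephx2 -0.30 and Stmn4 -0.32. The largest change among them was -0.68 (SE 0.49) for 1700001G11Rik, at 14282 bases. Its mean was 1.03 CPM in Tg4-42 vehicle and 0.628 CPM in Tg4-42 caffeine libraries.

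**Figure D5:**
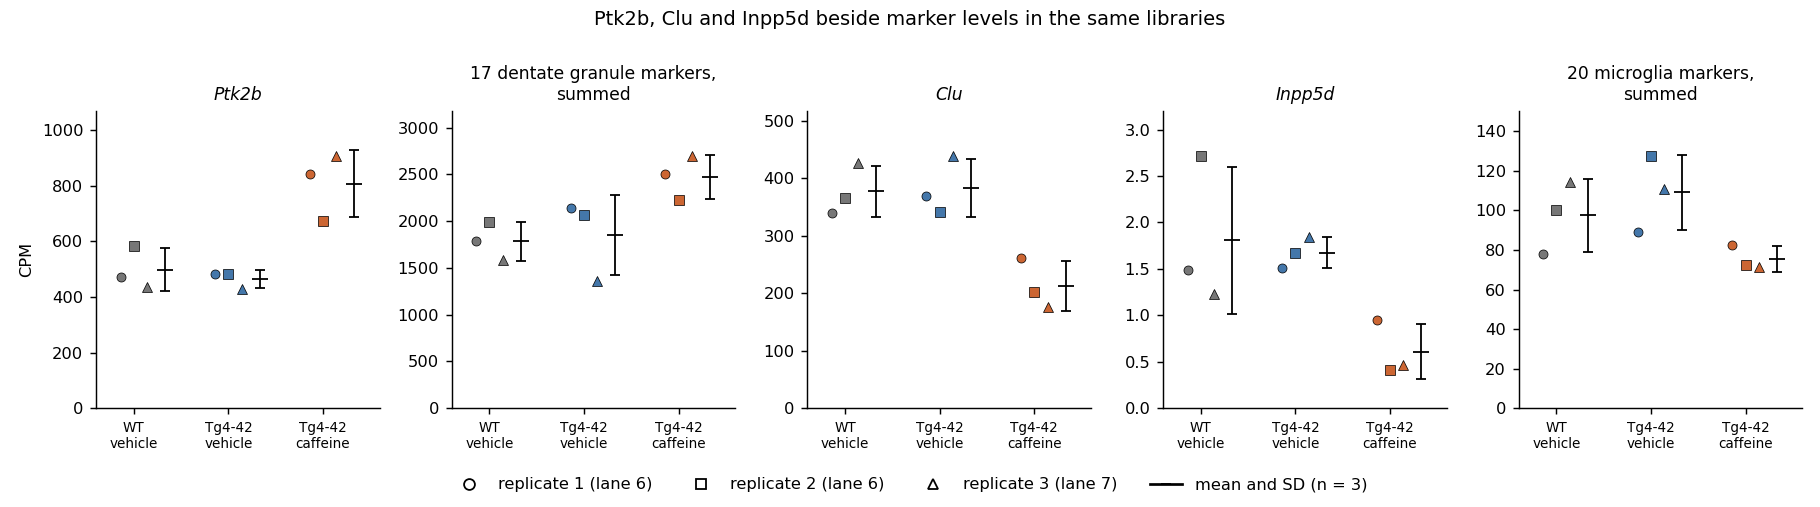
CPM per library of Ptk2b, of 17 summed dentate granule markers, of Clu, of Inpp5d and of 20 summed microglia markers, with the mean and SD of each group. Ptk2b and the dentate markers are highest in the 3 caffeine libraries, Clu and Inpp5d are lowest there, and the microglia markers of the caffeine libraries, at 71.2 to 82.7 CPM, overlap with the lowest WT library at 77.9 CPM.

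The enzymes of phosphoinositide signalling had the lowest CPM of the 10 genes, although per kilobase of exon Plcg2 did not differ from Cd2ap beyond the spread. Inpp5d (ENSMUSG00000026288, chr1:87620312-87720507, plus strand) encodes SHIP1, a lipid phosphatase of blood cells and microglia. It was counted 19, 43 and 19 times in WT vehicle, 14, 26 and 23 times in Tg4-42 vehicle and 13, 6 and 6 times in Tg4-42 caffeine libraries. In CPM these were 1.49, 2.71 and 1.23, then 1.51, 1.67 and 1.84, and 0.954, 0.414 and 0.461. Each of the caffeine values lay below each of the other 6. Summed over a group, 25 counts gave 0.624 CPM with caffeine (exact Poisson 95% interval 0.404 to 0.921), against 63 counts and 1.67 CPM (1.28 to 2.14) with vehicle, intervals that cover counting error only. The log2 fold change was -1.45 (-2.41 to -0.49) and the edgeR adjusted p of 0.125 missed the threshold. With limma-voom and sample quality weights it passed (adjusted p = 0.0494). The difference of mean log2 CPM was -1.14 within lane 6 and -1.71 within lane 7.

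Microglia markers moved in the direction of Inpp5d. All 18 tested markers had a negative log2 fold change with caffeine, with a median of -0.49, and none was called. The summed level of the 20 markers was 82.7, 72.4 and 71.2 CPM in caffeine, 89.3, 127 and 111 CPM in Tg4-42 vehicle and 77.9, 100 and 115 CPM in WT vehicle libraries. Among the most abundant were Ctss (log2 fold change -0.77) and Csf1r (-0.51), and Inpp5d itself, at -1.45, lay below each of the 18. Ratios of caffeine to vehicle means were 0.691 for the summed markers and 0.364 for Inpp5d. Negative medians were not particular to microglia. They were also found for oligodendrocyte (-0.55), astrocyte (-0.62), interneuron (-0.47), endothelial and mural (-0.28), CA1 (-0.09) and general neuron markers (-0.07). The medians of dentate granule markers (0.58) and of CA3 and CA2 markers (0.08) were positive. The part of any of these cell types in the Inpp5d result was not tested.

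Plcg2 (ENSMUSG00000034330, chr8:117498291-117635142, plus strand) encodes a phospholipase C that cleaves a membrane phosphoinositide into messengers for calcium and protein kinase C. It measured 3.84, 4.79 and 3.36 CPM in WT vehicle, 7.02, 4.48 and 4.09 CPM in Tg4-42 vehicle and 6.39, 6.97 and 10.6 CPM in Tg4-42 caffeine libraries, from 49 to 138 counts. The first Tg4-42 vehicle library reached into the caffeine range, whereas no WT library did. With caffeine against vehicle the log2 fold change was 0.63 (0.05 to 1.21, edgeR adjusted p = 0.255), with 0.24 within lane 6 and 1.34 within lane 7. It was 0.38 without Tg4-42 caffeine replicate 3 and 0.89 without Tg4-42 vehicle replicate 1. All 18 tested microglia markers had negative values and Plcg2 a positive one. The part of any cell type in the Plcg2 result was not tested.

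With caffeine, Inpp5d and Plcg2 had log2 fold changes on opposite sides of 0, at -1.45 and 0.63. Neither was called (edgeR adjusted p = 0.125 and 0.255). Their promoters are shown here. Both are the 250 bases before the start in RefSeq on GRCm38.p6, 5′ to 3′ on the plus strand, Inpp5d at chr1:87620062-87620311 and Plcg2 at chr8:117498025-117498274. Capitals mark the ETS core AGGAAG, the GC box GGGCGG and the E-box CACGTG, searched on both strands.
Inpp5d: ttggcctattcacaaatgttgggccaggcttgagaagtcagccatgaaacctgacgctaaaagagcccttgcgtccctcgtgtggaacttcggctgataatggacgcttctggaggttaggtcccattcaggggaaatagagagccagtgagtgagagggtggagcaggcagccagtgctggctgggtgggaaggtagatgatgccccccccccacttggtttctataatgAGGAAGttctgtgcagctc
Plcg2: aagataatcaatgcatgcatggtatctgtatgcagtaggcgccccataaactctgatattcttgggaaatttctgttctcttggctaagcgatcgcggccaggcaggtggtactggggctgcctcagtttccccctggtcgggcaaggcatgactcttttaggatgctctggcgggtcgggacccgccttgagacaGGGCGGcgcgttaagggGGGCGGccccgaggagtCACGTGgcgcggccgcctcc
In the full windows of 300 bases, which reach 50 bases past the start, Inpp5d held 2 ETS cores and no GC box, and Plcg2 held 2 GC boxes, 1 E-box and no ETS core. Of 32851 RefSeq promoters of the same length, 35.4% held the ETS core, 35.7% the GC box and 7.15% the E-box. The GC content was 53.7% with 6 CG dinucleotides for Inpp5d and 60.0% with 21 for Plcg2, against medians of 52.7% and 7. The table held 8 promoters of 7 of the 10 genes, and 7 of the 8 had more CG dinucleotides than the median and 6 had a GC box, up to 44 CG dinucleotides and 6 GC boxes in Picalm. The cyclic AMP response element TGACGTCA, present in 1.79% of all promoters, was in 0 of the 8. A match describes letters in this window and not binding, and a link between these letters and the changes with caffeine was not tested.

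The third comparison set caffeine-treated Tg4-42 mice against vehicle-treated WT mice, in which transgene and treatment cannot be told apart. It uses the same caffeine libraries as the second. None of the 10 genes was called by the edgeR test, against 0.415% of all tested genes. Those with an unadjusted p under 0.05 were 3, Ptk2b, Plcg2 and Inpp5d, against 15.4% of all tested genes, and the same 3 did not overlap between the groups, against 18.8%. Their log2 fold changes were 0.70 for Ptk2b (0.38 to 1.01), 0.99 for Plcg2 (0.41 to 1.58, edgeR adjusted p = 0.106) and -1.56 for Inpp5d (-2.51 to -0.62, edgeR adjusted p = 0.116). Within lanes 6 and 7 the differences of mean log2 CPM were 0.52 and 1.05 for Ptk2b, 0.62 and 1.62 for Plcg2 and -1.46 and -1.18 for Inpp5d. DESeq2 called Ptk2b (adjusted p = 0.000613) and Plcg2 (0.029) and gave Inpp5d no adjusted p, and without a filter on low counts edgeR called all 3. The other 7 genes had log2 fold changes between -0.09 for Abca7 and 0.16 for Bin1.

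The pathways around the 10 genes were described by longer lists. Of 44 genes of clathrin endocytosis, 22 were higher and 22 lower with caffeine and none was called, with a median log2 fold change of -0.01. The smallest p-values belonged to Hspa8 (-0.68, edgeR adjusted p = 0.0559), the chaperone that uncoats clathrin, Epn1 (0.45), an adaptor, and Synj2 (-0.72), a lipid phosphatase. Of 30 sorting receptors and retromer genes 12 were higher and 18 lower, with a median of -0.05 and none called. Among the smallest p-values were those of Lrpap1 (-0.48, edgeR adjusted p = 0.0866), a chaperone of such receptors, and Vps35 (-0.46), a core subunit of the retromer. Of 12 tested ABCA and related transporters 6 were higher and 6 lower, and Abca6 was called (-1.53, SE 0.33, edgeR adjusted p = 0.0462), falling from 5.05 to 1.74 mean CPM. Abca3 (-0.54, edgeR adjusted p = 0.0507) and Abca4 (0.64) had the next smallest p-values.

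Of 52 tested genes of Pyk2 and kindlin adhesion signalling 31 were higher and 21 lower with caffeine, with a median log2 fold change of 0.07 and none called. Src (0.52, edgeR adjusted p = 0.0922), Itga5 (-1.49) and the phosphatase gene Ptpn5 (-0.48) had the smallest p-values. Ptk2, the close relative of Ptk2b that encodes focal adhesion kinase, had mean levels of 145, 150 and 158 CPM in WT vehicle, Tg4-42 vehicle and Tg4-42 caffeine libraries and a log2 fold change of 0.08 (edgeR adjusted p = 0.778). Of 58 tau kinases and microtubule genes 29 were higher and 29 lower, with a median of 0.00 and none called, led by Camk2b (0.63, edgeR adjusted p = 0.0639), Mapk3 (0.55) and Tubb3 (-0.59). Of 59 tested genes of phospholipase C and phosphoinositides 36 were higher and 23 lower, with a median of 0.05 and none called. There Prkce (0.65, edgeR adjusted p = 0.0507), Itpka (0.64) and Dgkh (0.54) had the smallest p-values. Of the 16 neuron markers 6 were higher and 10 lower, with none called and a median of -0.07.

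Of 72 further risk genes 60 were tested, and with caffeine 22 were higher and 38 lower, with a median log2 fold change of -0.18 beside -0.01 over all tested genes. Called were 2, both lower, in a comparison that called 0.881% of all tested genes: Clu and Ctsb. Ctsb encodes the lysosomal protease cathepsin B and fell from 1449 to 912 mean CPM (-0.67, SE 0.15, edgeR adjusted p = 0.0469). Grn (-0.55, edgeR adjusted p = 0.0525), the gene of the lysosomal protein progranulin, and Ace (-1.38, edgeR adjusted p = 0.0692), of the angiotensin-converting enzyme, followed by p. Between vehicle-treated Tg4-42 and WT mice, 0 of the 60 were called, with 37 higher and 23 lower and a median of 0.02. The list shares 3 genes, Trem2, Siglech and Spi1, with the microglia markers, Cass4 with the adhesion genes, Abca1 with the transporters, Blnk with the phosphoinositide genes and Sort1 and Snx1 with the sorting genes.

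Marker genes of the other cell types gave the following log2 fold changes with caffeine, none of them called unless stated above. Of 16 tested oligodendrocyte markers 14 were lower (median -0.55). Among the most abundant were Mbp (-0.25) and Cnp (-0.62), and Mobp (-0.88) and Ugt8a (-1.11) were among those with the smallest p-values. The most abundant astrocyte markers were Slc1a2 (-0.27), Aldoc (-0.62) and Slc4a4 (0.23), and Gfap was at -0.86. Of 7 tested endothelial and mural markers 5 were lower (median -0.28), with Egfl7 at 0.05, Itm2a at -0.39, Rgs5 at -0.46 and Pdgfrb at -0.35. Among microglia markers Tmem119 was at -0.89 and Siglech at -1.22. The most abundant dentate markers were Il1rap (-0.11), Rfx3 (0.37) and C1ql2 (0.68), with Pdzd2 at 0.67 and Prox1 at 0.93. The most abundant genes on the CA1 marker list were Neurod6 (0.01), Mpped1 (-0.41) and Wfs1 (-0.56), with Pou3f1 at 0.70. Those of CA3 and CA2 were Cpne7 (0.15), Ptpn5 (-0.48) and Elavl2 (-0.37), with Iyd at 0.91, Galnt3 at 0.57 and Cdh24 at 0.35. Those of interneurons were Cnr1 (-0.51), Gad1 (-0.40) and Cck (-0.09), with Reln at -0.66, and those of neurons in general were Syt1 (-0.44), Snap25 (-0.23) and Syp (-0.34), with Tubb3 at -0.59 and Nrgn at 0.58.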

How the data were processed

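RNA from NeuN-sorted hippocampal nuclei, in 9 libraries of 3 groups, was sequenced as single-end reads of 50 bases, after amplification with a low-input kit. The authors aligned the reads to mm10 with STAR and deposited whole counts of reads on gene exons from featureCounts, without normalization. Versions, annotation and strand setting are not given in the sources used here. The treatment label is given only for the caffeine group, and vehicle was taken from the genotype label and the study's methods. For nuclei isolation the labels state n = 6 in each group, and 3 libraries of each were used here, so a library may hold nuclei of more than 1 mouse.

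Gene symbols and positions came from GENCODE M21 on the same build. Tests were run in edgeR 4.0.16 under R 4.3.3. Low counts were removed with filterByExpr (minimum count 10, minimum total 15), and the libraries were scaled by TMM and fitted in 1 robust quasi-likelihood model over all 9 libraries, with Benjamini-Hochberg adjustment over 17361 genes. The study's methods used DESeq2, which was an alternative here (version 1.42.0), as was limma-voom with sample quality weights (limma 3.58.1). Other alternatives were RLE scaling, no filter, a mean of at least 50 counts, only the groups compared, lane as a covariate and leaving out each library; lane 6 alone was added after seeing the data. CPM used TMM-scaled totals, log2 CPM a prior count of 2, and levels between genes the union of exons. Replicates of a group differed by more than sampling noise (chi-square per gene 8.27 to 19.2). The fit was run on simulated data with known changes and no lane effect, which cannot show how the calls depend on lane. The members, marker lists and pathway lists were chosen with earlier results of these data known. Of the listed symbols, Ankh and Nov had no match. Sequencing lanes were read from the library names. Named from each list are genes called in any comparison and the 3 with the smallest p for caffeine against vehicle; of the markers of other cell types, the 3 highest; and the 5 genes most correlated with a called member. Some genes that this rule names are not reported here. Neighbours of Ptk2b, Ptk2 and single marker values were chosen after their values were seen. Promoter sequences came from RefSeq on GRCm38.p6.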

Additional observations from a re-analysis of the deposited data

How the results depend on the processing

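Of 417 values under alternatives, 11 changed sign, leaving aside values that rounded to 0.00, such as Mapt with caffeine without Tg4-42 caffeine replicate 1. With caffeine against vehicle, 1 of the 10 genes was called, 2 with limma-voom and sample quality weights (Ptk2b and Inpp5d), which change test and weighting together, 0 with the lane as a covariate and 0 in the lane 6 libraries alone, an alternative chosen after seeing the data, and 0 to 1 with a library left out. With caffeine-treated Tg4-42 against WT, 0 were called, 2 with DESeq2, 3 without a filter on low counts, 1 at a mean of at least 50 counts, and 0 to 1 with a library left out (Ptk2b without Tg4-42 caffeine replicate 2). Between vehicle-treated Tg4-42 and WT, 0 were called in every fit. Over all genes, edgeR called 153 with caffeine against vehicle, 751 were called by DESeq2, 618 by weighted limma-voom, 987 without a filter, 228 with only those groups, 9 with lane and 0 in lane 6; against WT 72, 553, 106, 860, 106, 42 and 17; and between the vehicle groups 17, 25, 16, 74, 18, 16 and 15. With caffeine against vehicle, the count was 341, 58 and 0 without Tg4-42 caffeine replicates 1, 2 and 3, and 3, 190 and 0 without Tg4-42 vehicle replicates 1, 2 and 3. Values near 0 changed sign: for Cd2ap, -0.01 with caffeine against vehicle became 0.03 with weighted limma-voom, 0.05 without Tg4-42 caffeine replicate 1 and 0.13 without Tg4-42 vehicle replicate 1, and 0.10 against WT became -0.03 in lane 6. Without Tg4-42 vehicle replicate 1, Sorl1 with caffeine became 0.01, and between the vehicle groups Picalm became -0.04 and Cd2ap -0.02. Without WT vehicle replicate 2, Ptk2b became 0.03 and Inpp5d 0.31 between the vehicle groups. Abca7 in caffeine-treated Tg4-42 against WT, -0.09, became 0.13 in lane 6 and 0.15 without WT vehicle replicate 3. For these genes, the other end of the range with a library left out was 0.09 for Picalm, 0.29 for Cd2ap, -0.19 for Ptk2b and -0.34 for Inpp5d between the vehicle groups, -0.11 for Cd2ap with caffeine against vehicle and -0.32 for Abca7 against WT. The cause was not tested. In the order of levels, 5 of 10 places held without division by length and 6 with the longest transcript. Inpp5d, at 6 to 43 counts a library, is limited by depth, DESeq2 gave it no adjusted p with caffeine against vehicle or against WT, and the filter at a mean of 50 counts left it out. No paired analysis was possible because the numbers in the titles differ between the groups; lane, a shared technical factor, was fitted as a covariate instead.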
